A study of Homo sapiens with 12 samples.

Results

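Interferons signal through paired receptor chains, and the cell limits that signal with a set of inhibitors. The 10 genes described here are the receptor chains IFNAR1, IFNAR2, IFNGR1 and IFNGR2, the suppressors of cytokine signalling SOCS1, SOCS2, SOCS3 and CISH, the tyrosine phosphatase gene PTPN11 and the protein inhibitor of activated STAT gene PIAS1. They were chosen by symbol, and all 10 were found among the 60649 genes of the deposited count table. All 10 passed the filter on low counts, which kept 18119 genes.

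RNA sequencing was run on AC16, a human cell line labelled as a ventricular cardiomyocyte line, wild type in all 4 groups, with 3 libraries per group. Repeat cells received interferon alpha-2a, a type I interferon, at 1000 U/mL for 24 h, were held without it for 4 days, and then received it again for 24 h. Recovery cells received a 24 h pulse and were held without interferon for 5 days. Acute cells were collected as a single 24 h pulse ended. Vehicle cells were given phosphate-buffered saline in place of interferon. Their label says 24 h, while the treatment protocol gives controls intervals equal to those of the treated cells, so the time of the vehicle cells in culture is unclear. The labels place harvest on day 7 for repeat, although the stated times add to 6 days, and on day 6 for recovery. A comparison of repeat or recovery with acute cells therefore also compares times in culture, and the 2 cannot be told apart. The same holds against vehicle cells if their label of 24 h is right. Repeat and recovery cells differ in labelled harvest day, 7 against 6, though not by the stated times. Recovery cells were also held for 5 days, where repeat cells had been held for 4 days when the later pulse began. Repeat against recovery cells, and the difference between the responses to the pulses, therefore do not isolate the later pulse alone. AC16 is a single line, and the replicates are stated to be independent, with no culture named. P-values measure the spread between these libraries.

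As background, type I interferons bind IFNAR1 and IFNAR2, whose cytoplasmic tails carry the kinases TYK2 and JAK1. Interferon gamma, the type II interferon, binds IFNGR1 and IFNGR2, which use JAK1 and JAK2. The kinases phosphorylate STAT proteins, and STAT complexes with IRF9 bind the interferon-stimulated response element in target promoters. SOCS1 binds and inhibits JAK kinases. SOCS3 acts mainly at receptors of the gp130 family, and SOCS2 and CISH are targets and inhibitors of STAT5-activating receptors. The phosphatase SHP2, the product of PTPN11, acts in growth factor and cytokine signalling, and PIAS1 is a SUMO ligase that inhibits STAT-driven transcription.

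All 10 are protein-coding genes (coordinates on GRCh38, GENCODE release 44). On the plus strand of chromosome 21 lie IFNAR2 (chr21:33205282-33265675), IFNAR1 (chr21:33324387-33359864) and IFNGR2 (chr21:33403413-33479348). IFNGR1 lies on the minus strand at chr6:137197483-137219449. The inhibitors are spread over other chromosomes, with SOCS1 at chr16:11254417-11256204, SOCS3 at chr17:78356778-78360077 and CISH at chr3:50606489-50611774 on the minus strand, and SOCS2 at chr12:93569814-93583487, PTPN11 at chr12:112418351-112509918 and PIAS1 at chr15:68054309-68198603 on the plus strand.

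Promoter sequence was available for 7 of the 10 genes in RefSeq (build GRCh38.p14). The windows of SOCS1 and CISH are shown because they were the only ones among these 7 in which any of 3 searched motifs was found. Each sequence is the 250 bases upstream of the annotated start, read 5′ to 3′ on the gene's own strand, the minus strand of chr16:11256205-11256454 for SOCS1 and of chr3:50611775-50612024 for CISH. Capitals mark the motif matches.
SOCS1: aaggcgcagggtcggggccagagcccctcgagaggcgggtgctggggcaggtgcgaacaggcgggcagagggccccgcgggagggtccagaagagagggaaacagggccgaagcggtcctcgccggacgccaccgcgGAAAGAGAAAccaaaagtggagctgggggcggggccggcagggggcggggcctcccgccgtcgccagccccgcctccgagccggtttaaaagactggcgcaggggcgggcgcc
CISH: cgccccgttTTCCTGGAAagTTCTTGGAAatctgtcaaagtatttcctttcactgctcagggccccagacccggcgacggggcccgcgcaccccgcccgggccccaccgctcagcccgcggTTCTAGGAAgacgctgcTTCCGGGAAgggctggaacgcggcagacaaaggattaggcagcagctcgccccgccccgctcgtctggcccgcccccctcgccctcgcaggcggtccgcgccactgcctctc
The capitals in SOCS1 are 1 match to the core of the interferon-stimulated response element, GAAANNGAAA, from base -113 to base -104 relative to the start. The capitals in CISH are 4 matches to the STAT palindrome TTCNNNGAA, which begin at bases -241, -230, -129 and -112. The third motif was TTCNNNNGAA, and motifs were searched on both strands of the window of 300 bases, which includes 50 bases after the start. Of 35116 RefSeq windows of that length, 3.57% held GAAANNGAAA, 7.66% held TTCNNNGAA and 6.44% held TTCNNNNGAA. A match is a string of letters and was not tested as a binding site.

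The cells responded to interferon in every treated group. All 8 of a set of well-known interferon-induced genes (MX1, OAS1, OAS2, IFI44L, IFIT1, IFIT3, ISG15 and USP18) rose in acute relative to vehicle cells, with a median log2 fold change of 7.07, and 7 of the 8 were still higher in recovery than in vehicle cells on counts, with a median of 0.81. Of those 7, IFIT3 (adjusted p = 0.224) and USP18 (adjusted p = 0.0572) lost the recovery call on log2(TPM + 0.5). Libraries held 39.9 to 62.3 M estimated counts (1 M is 1000000). In a principal component analysis acute replicate 2 stood apart on the second component (8.05% of the variance), at -30.98 where the other acute libraries lay at 1.4 and 3.7. Without it the calls of SOCS2 and SOCS3 in acute against vehicle cells, of SOCS3 in recovery and in repeat against acute cells and of PTPN11 in the difference between the responses to the later and the first pulse were lost. Markers went partly against the labelled cell type. Of 12 cardiomyocyte markers, 2 (ACTN2 and GATA4) passed the filter and their list summed to 4.17 to 6.83 TPM over all libraries. MYL7 had 0 counts in every library, and MYH6, MYH7 and NKX2-5 had at most 2. All 8 fibroblast markers passed, and their summed level was 1820 to 1930 TPM in repeat, 2310 to 2380 in recovery, 2070 to 2200 in acute and 2690 to 2780 in vehicle libraries. Of 6 leukocyte markers 3 passed. Their sum, 274 to 286 TPM in repeat, 137 to 146 in recovery, 269 to 294 in acute and 111 to 117 in vehicle libraries, was nearly all CD68, which rose in acute relative to vehicle cells by a log2 fold change of 1.30 ± 0.030 (adjusted p = 6.19e-21). CD14, at 14 to 48 counts in a library, fell, by a log2 fold change of -0.80 ± 0.256 (adjusted p = 0.0119). CD3E had 0 counts and PTPRC averaged at most 1.65 TPM in any group. Of 4 endothelial markers 3 passed, and the list summed to at most 0.308 TPM. The endothelial sums of all groups overlapped. The cardiomyocyte sums of repeat and recovery libraries overlapped too, but at 4.86 to 4.98 TPM those of acute libraries lay below the 5.34 to 6.83 TPM of vehicle libraries. That sum was mostly GATA4, and its 2 markers past the filter moved in opposite directions in acute relative to vehicle cells. GATA4 fell by a log2 fold change of -0.19 ± 0.056 (adjusted p = 0.0059), while ACTN2 rose by 0.39 ± 0.146 (adjusted p = 0.032). The fibroblast sum and CD68 moved with both pulses, and the part of these lists in the results below was not tested. In bulk RNA, fewer cells of a type and less RNA per cell cannot be told apart.

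Compared per length, in TPM (counts scaled by gene length to a fixed total per library), the 10 genes kept a similar order in all groups. PTPN11 was highest, at a mean of 77.4 TPM in repeat, 99.8 in recovery, 75.1 in acute and 107 in vehicle libraries. IFNGR2 and PIAS1 followed at 29.7 to 34.2 TPM, and then IFNAR1 at 23.0 to 24.5. IFNAR2 lay at 15.2 to 18.8 TPM, IFNGR1 at 10.9 to 14.5 and SOCS3 at 12.0 to 13.2. SOCS2 lay at 4.5 to 5.59 TPM, SOCS1 at 1.16 to 2.39 and CISH at 0.247 to 0.304, the lowest of the 10. IFNGR2 ranked above PIAS1 in repeat and acute libraries and below it in recovery and vehicle libraries, and IFNGR1 ranked above SOCS3 in repeat and acute libraries and below it in the other groups. In repeat libraries the ranges of IFNGR2 and PIAS1, of IFNAR2 and IFNGR1, and of IFNGR1 and SOCS3 overlapped, and no other neighbours in the order overlapped in any group.

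**Figure D1:**
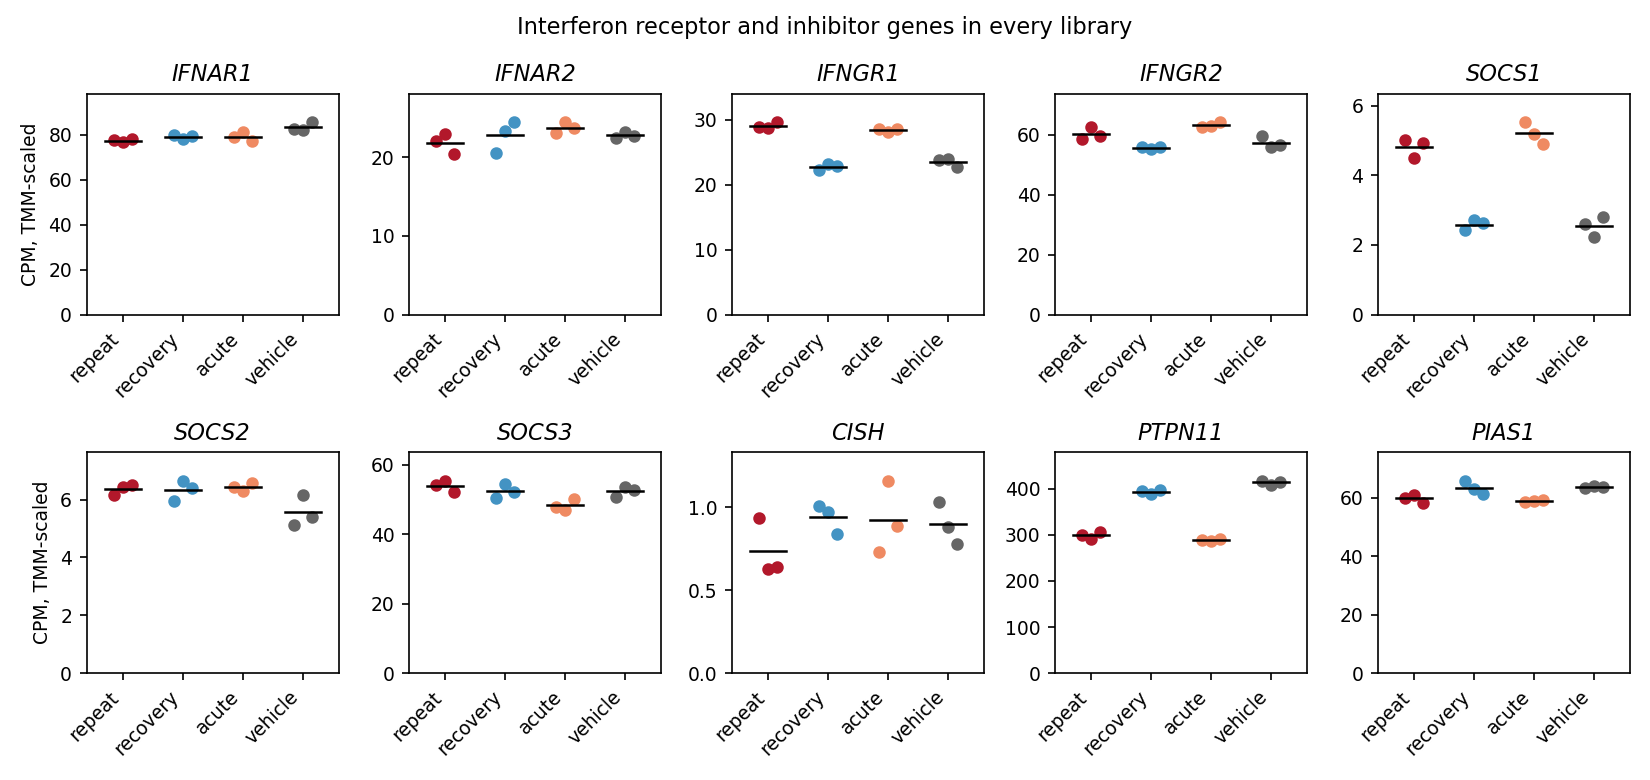
TMM-scaled CPM (vertical axes, each starting at 0) of the 10 genes in every library of the repeat, recovery, acute and vehicle groups; points are libraries and bars are group means. SOCS1 and IFNGR1 are higher in repeat and acute than in recovery and vehicle libraries, and PTPN11 is lower there, with no overlap. Of all genes tested, 49.4% had no overlap in repeat against recovery cells and 52.8% in acute against vehicle cells.

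Among the inhibitors, SOCS1 was the gene that changed most. It doubled with the first pulse, was back at the vehicle level in recovery and rose again with the later pulse. On the scale of TMM-scaled CPM (counts per 1000000 counts of the library), SOCS1 had 5.02, 4.51 and 4.93 CPM in the repeat libraries and 2.42, 2.71 and 2.62 CPM in the recovery libraries. It had 5.52, 5.19 and 4.89 CPM in the acute libraries, against 2.61, 2.22 and 2.79 CPM in the vehicle libraries. Every library taken at the end of a pulse was above every library taken without one. Groups that did not overlap, in either direction, were found for 49.4% of all genes tested in repeat against recovery cells and for 52.8% in acute against vehicle cells. The share of genes separated over both comparisons at once was not computed. The log2 fold change was 1.03 ± 0.11 (SE) in acute against vehicle cells, which is 2.05-fold (adjusted p = 8.4e-09), and 0.90 ± 0.11 in repeat against recovery cells, or 1.86-fold (adjusted p = 1.13e-07). Recovery was lower than acute, at a log2 fold change of -1.01 ± 0.11 (adjusted p = 1.67e-08). Recovery and vehicle differed by 0.02 on the log2 scale, with a 95% interval of -0.22 to 0.26, and this difference did not pass the test (adjusted p = 0.959). The response to the later pulse minus that to the first was -0.14, with an interval of -0.46 to 0.18 (adjusted p = 0.822). SOCS1 remained a low gene throughout, with 98 to 310 counts in a library. The calls of SOCS1 at each pulse and in recovery against acute held in every alternative, although log2(TPM + 0.5) gave a smaller change, 0.79 in acute against vehicle and 0.71 in repeat against recovery, since the added 0.5 weighs on a gene at this level.

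PTPN11 fell with each pulse. It had 300, 290 and 307 CPM in the repeat libraries and 394, 389 and 397 CPM in the recovery libraries. It had 288, 286 and 291 CPM in the acute libraries, against 417, 409 and 415 CPM in the vehicle libraries. All 6 libraries taken at the end of a pulse lay below all 6 taken without one. The share of all genes with such a split was not computed. Within single comparisons, 49.4% of all genes tested did not overlap in repeat against recovery cells and 52.8% in acute against vehicle cells. The log2 fold change was -0.52 ± 0.022 in acute against vehicle cells, or 0.70-fold (adjusted p = 1.53e-17), and -0.40 ± 0.021 in repeat against recovery cells, or 0.76-fold (adjusted p = 9.01e-15). Recovery was higher than acute by 0.45 ± 0.022 (adjusted p = 6.02e-16). Recovery stayed slightly below vehicle, at -0.07 ± 0.021 (adjusted p = 0.0384), but this call was lost with no filter on low counts, with gene length in the model, on either TPM scale and without any 1 of the 6 libraries, where the adjusted p reached 0.183. The fall was smaller at the later pulse by 0.13 ± 0.030 on the log2 scale (adjusted p = 0.0467), a difference whose weak footing is given under the flagged results. PTPN11 shares 111 exonic bases with RPL6, a ribosomal protein gene on the opposite strand, and whether counting used the strand is not given in the sources used here. RPL6 fell, at a log2 fold change of -0.11 ± 0.023 in acute against vehicle cells (adjusted p = 0.00029). In repeat against recovery cells RPL6 was not called, at -0.05 ± 0.023 (adjusted p = 0.0651). The 5 annotated PTPN11 pseudogenes together held 0.124 to 0.286% of the PTPN11 counts in a library.

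PIAS1 moved little. It had 60.1, 61 and 58.2 CPM in the repeat libraries and 65.8, 63 and 61.2 CPM in the recovery libraries. It had 58.7, 59 and 59.1 CPM in the acute libraries, against 63.5, 64.1 and 63.6 CPM in the vehicle libraries. Neither pair of groups overlapped, which held for 49.4% of all genes tested in repeat against recovery and 52.8% in acute against vehicle cells. The log2 fold change was -0.11 ± 0.030 in acute against vehicle cells (adjusted p = 0.00267), lost with gene length in the model and on either TPM scale, and -0.08 ± 0.030 in repeat against recovery cells (adjusted p = 0.0271). The later call was lost in 6 of 10 alternatives and without recovery replicate 1, recovery replicate 2 or repeat replicate 3, with adjusted p up to 0.196. PIAS1 shares 3261 exonic bases with CALML4 and 2934 with an unnamed gene (ENSG00000260007), both on the opposite strand and neither called in either comparison.

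SOCS3, the gp130-receptor inhibitor, had 54.1, 55.4 and 52.1 CPM in the repeat libraries and 50.4, 54.6 and 52.1 CPM in the recovery libraries. It had 48.0, 47.1 and 50.1 CPM in the acute libraries, against 50.7, 53.7 and 52.8 CPM in the vehicle libraries. The acute libraries were thus the lowest group. SOCS3 fell in acute relative to vehicle cells, at a log2 fold change of -0.11 ± 0.036 (adjusted p = 0.0114), and it was higher in repeat than in acute cells by 0.15 ± 0.035 (adjusted p = 0.0104). No change was called in repeat against recovery cells, where the log2 fold change was 0.04 with an interval of -0.03 to 0.11 (adjusted p = 0.375). Both calls were lost with gene length in the model and on either TPM scale. The acute call was also lost without vehicle replicate 2 or acute replicate 2 (adjusted p up to 0.0594), and the repeat call without acute replicate 2 or repeat replicate 2 (adjusted p up to 0.0702).

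SOCS2, which restrains growth hormone signalling, was lowest in vehicle libraries, with a mean of 6.36 ± 0.185 CPM (SD, n = 3) in repeat, 6.34 ± 0.361 in recovery, 6.44 ± 0.134 in acute and 5.56 ± 0.532 in vehicle. It rose in acute relative to vehicle cells by a log2 fold change of 0.22 ± 0.082 (adjusted p = 0.0336), a call lost in 4 of 10 alternatives and without any of 5 of the 6 libraries (vehicle replicate 2 excepted), with adjusted p up to 0.186. Its log2 fold change in repeat against recovery cells was 0.00, with an interval of -0.16 to 0.17 (adjusted p = 0.977). SOCS2-AS1, on the opposite strand over 277 shared exonic bases, lay at 0.445 to 0.696 CPM. Its log2 fold change was -0.44 ± 0.262 in acute against vehicle cells (adjusted p = 0.184). It was called lower in repeat against recovery cells, at -0.65 ± 0.258 (adjusted p = 0.0461). CISH had 31 to 59 counts in a library and 0.630 to 1.16 CPM, and the ranges of all 4 groups overlapped. Its log2 fold change was 0.02 with an interval of -0.44 to 0.48 in acute against vehicle cells (adjusted p = 0.953), and -0.35 with an interval of -0.81 to 0.11 in repeat against recovery cells (adjusted p = 0.227). MAPKAPK3, which shares 218 exonic bases with CISH on the opposite strand, rose in acute relative to vehicle cells, at a log2 fold change of 0.31 ± 0.043 (adjusted p = 6.55e-07). At this depth a change of CISH smaller than those intervals was not detectable.

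SOCS1 took a larger share of its family at the end of a pulse, which restates its own rise, as the family sum moved little. The 8 family members summed to 53.3 TPM in repeat, 55.8 in recovery, 51.8 in acute and 53.6 in vehicle libraries on average. SOCS1 made up 4.14 ± 0.27% of that sum in repeat, 2.08 ± 0.0839% in recovery, 4.61 ± 0.28% in acute and 2.18 ± 0.24% in vehicle libraries (SD, n = 3 each). SOCS3 made up 22.8 to 25.4% in every library. The relatives outside the group of 10 went the other way on counts: all 4 of SOCS4, SOCS5, SOCS6 and SOCS7 fell in acute relative to vehicle cells and all 4 fell in repeat relative to recovery cells, where 21.5% and 20.5% of all genes tested were called lower. The log2 fold change of SOCS4 was -0.34 ± 0.041 (adjusted p = 6.41e-08) and -0.26 ± 0.040 (adjusted p = 4.07e-06) in those comparisons. That of SOCS5 was -0.21 ± 0.028 (adjusted p = 5.47e-07) and -0.22 ± 0.028 (adjusted p = 1.42e-07). On log2(TPM + 0.5) SOCS5 alone kept its call in each comparison, and SOCS6 had the opposite sign in acute against vehicle cells, at 0.09.

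**Figure D2:**
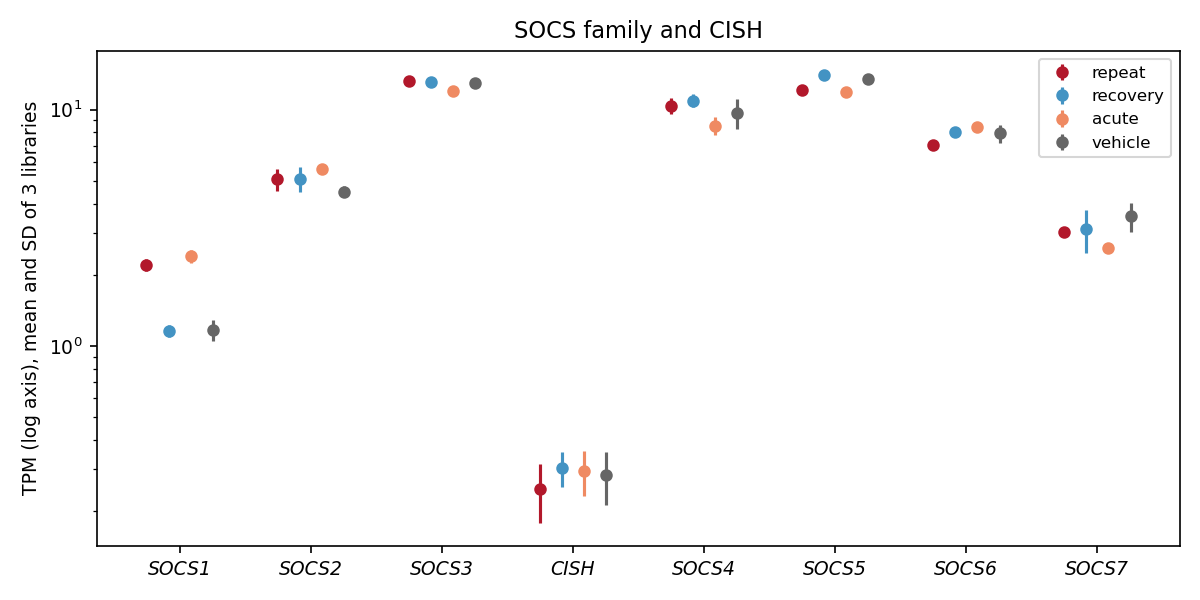
Mean TPM (vertical log axis) of the SOCS genes and CISH in the repeat, recovery, acute and vehicle groups, with SD over 3 libraries as bars. SOCS1 lies at 2.20 and 2.39 TPM in repeat and acute, against 1.16 and 1.17 TPM in recovery and vehicle, while SOCS3 stays at 12.0 to 13.2 TPM.

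Of the receptor chains, those of the interferon gamma receptor rose with each pulse of type I interferon, IFNGR1 more than IFNGR2. IFNGR1, the ligand-binding chain, had 28.9, 28.8 and 29.6 CPM in the repeat libraries and 22.3, 23.2 and 22.9 CPM in the recovery libraries. It had 28.5, 28.1 and 28.6 CPM in the acute libraries, against 23.8, 23.9 and 22.7 CPM in the vehicle libraries. The groups with and without a pulse did not overlap. Of all genes tested, 49.4% did not overlap in repeat against recovery cells and 52.8% in acute against vehicle cells. The log2 fold change of IFNGR1 was 0.28 ± 0.039 in acute against vehicle cells, or 1.21-fold (adjusted p = 1.07e-06), and 0.35 ± 0.038 in repeat against recovery cells, or 1.28-fold (adjusted p = 1.47e-08). In recovery it was lower than in acute cells, at a log2 fold change of -0.32 ± 0.039 (adjusted p = 1.44e-07), and it differed from vehicle by -0.04, with an interval of -0.12 to 0.04 (adjusted p = 0.672).

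IFNGR2, the accessory chain, had 58.5, 62.6 and 59.5 CPM in the repeat libraries and 55.9, 55.3 and 55.9 CPM in the recovery libraries. It had 62.7, 63.1 and 64.2 CPM in the acute libraries, against 59.6, 55.9 and 56.8 CPM in the vehicle libraries. All repeat libraries were above all recovery libraries, and all acute libraries above all vehicle libraries. Groups without overlap were found for 49.4% and 52.8% of all genes tested in those comparisons. The log2 fold change of IFNGR2 was 0.14 ± 0.031 in acute against vehicle cells (adjusted p = 0.000606) and 0.11 ± 0.031 in repeat against recovery cells (adjusted p = 0.00438). IFNGR2 in repeat against vehicle cells was not called, at 0.07 ± 0.031 (adjusted p = 0.0797). TMEM50B, which shares 380 exonic bases with IFNGR2 on the opposite strand, had a log2 fold change of -0.05 ± 0.052 in acute against vehicle cells (adjusted p = 0.499) and of 0.17 ± 0.052 in repeat against recovery cells (adjusted p = 0.00976). The IFNGR1 and IFNGR2 calls at each pulse held in every alternative and without any single library. Those of IFNGR2 held narrowly, with adjusted p up to 0.0455 in acute against vehicle and 0.0482 in repeat against recovery cells. For IFNGR1 it reached 0.0101 and 0.00859.

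The chains of the receptor that binds the added interferon gave no change that held on both scales. IFNAR1 had 77.4, 76.7 and 77.8 CPM in the repeat libraries and 79.6, 78.1 and 79.2 CPM in the recovery libraries. It had 78.9, 81.1 and 77.0 CPM in the acute libraries, against 82.4, 82.1 and 85.4 CPM in the vehicle libraries, which were the highest. On counts IFNAR1 fell in acute relative to vehicle cells, at a log2 fold change of -0.08 ± 0.027 (adjusted p = 0.0204), and in repeat relative to vehicle cells, with -0.11 ± 0.026 (adjusted p = 0.00121). With the gene length of each library in the model the signs turned, to 0.06 and 0.02, and on log2(TPM + 0.5) to 0.08 and 0.03, none of them called. The acute call was also lost without vehicle replicate 3, acute replicate 1 or acute replicate 3, with adjusted p up to 0.111. The length that counts and TPM imply for IFNAR1, relative to its mean, was 0.974 in repeat, 1.001 in recovery, 0.969 in acute and 1.056 in vehicle libraries. IFNAR1 shares 392 exonic bases with ENSG00000289238, a long noncoding RNA on the opposite strand. The coefficient of variation of the implied length of IFNAR1 over the 12 libraries was 6.15%, against a median of 4.48% over 9690 genes with at least 500 counts. This variation was larger for IFNAR2 (8.9%), CISH (8.09%), SOCS2 (6.52%) and IFNGR1 (6.26%). It was smaller for PIAS1 (3.24%), SOCS3 (3.05%), PTPN11 (2.59%), IFNGR2 (1.99%) and SOCS1 (1.74%).

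IFNAR2 averaged 21.7 ± 1.23 CPM in repeat, 22.7 ± 2.04 in recovery, 23.7 ± 0.696 in acute and 22.7 ± 0.404 in vehicle libraries (SD, n = 3 each), and the repeat libraries overlapped the recovery libraries. Its log2 fold change was 0.06 with an interval of -0.05 to 0.17 in acute against vehicle cells (adjusted p = 0.398). In repeat against recovery cells it was -0.06 with an interval of -0.17 to 0.05 (adjusted p = 0.388), and -0.13 without recovery replicate 1, where it was called (adjusted p = 0.0449). A readthrough gene, IFNAR2-IL10RB, shares 2038 exonic bases with IFNAR2 on the same strand and had 4.72 to 7.57 CPM as group means, so that reads could be split between them and the IFNAR2 values are uncertain.

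**Figure D3:**
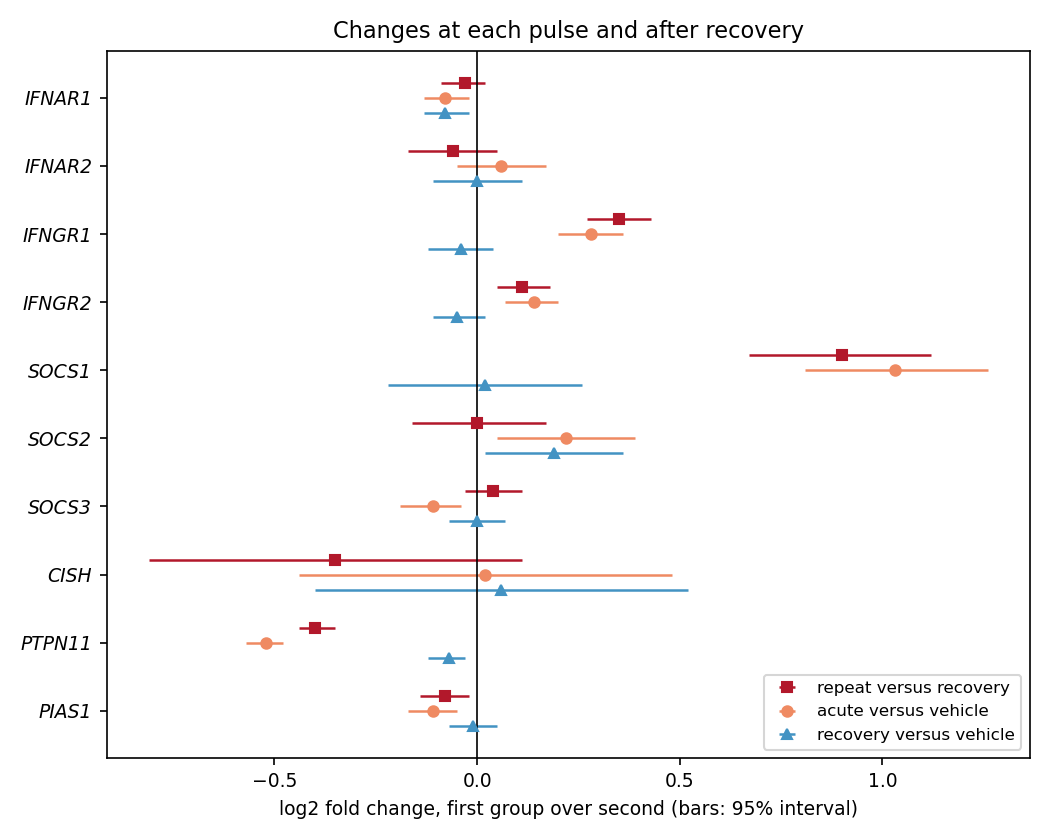
Log2 fold change (horizontal axis) with its 95% interval for each gene in repeat against recovery, acute against vehicle and recovery against vehicle cells, from the fit on counts. SOCS1 and IFNGR1 lie to the right of 0 and PTPN11 to the left at both pulses, while CISH has the widest intervals.

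Counted together in the test over all genes, 4 of the 10 genes rose in acute relative to vehicle cells (IFNGR1, IFNGR2, SOCS1 and SOCS2) and 4 fell (IFNAR1, SOCS3, PTPN11 and PIAS1), against 22.3% of all genes tested called higher, 21.5% called lower and 43.8% called in either direction. In repeat against recovery cells 3 rose (IFNGR1, IFNGR2 and SOCS1) and 2 fell (PTPN11 and PIAS1), against 21.1% and 20.5% of all genes and 41.6% in either direction. In recovery against acute cells 3 were higher (SOCS3, PTPN11 and PIAS1) and 3 lower (IFNGR1, IFNGR2 and SOCS1), against 20.4% and 20.7%, or 41.1% in either direction. In repeat against vehicle cells 3 rose (IFNGR1, SOCS1 and SOCS2) and 3 fell (IFNAR1, PTPN11 and PIAS1), against 23.4% and 22.9%, or 46.3% in either direction. In recovery against vehicle cells 1 gene of the 10, PTPN11, was called, and lower, against 2.91% of all genes called lower, 3.03% higher and 5.94% in either direction. In repeat against acute cells 1 gene, SOCS3, was called, and higher, against 1.77% called higher, 2.43% lower and 4.2% in either direction. In the difference between the responses to the later and the first pulse 1 gene, PTPN11, was called, with a positive sign, against 0.221% with a positive and 0.43% with a negative sign, or 0.651% in all. Not all of these calls held. SOCS2 in repeat against vehicle cells (log2 fold change 0.20, adjusted p = 0.0466) was lost in 7 of 10 alternatives and without any of 5 of the 6 libraries (vehicle replicate 2 excepted), with adjusted p up to 0.346. PIAS1 lost its call there with gene length in the model, on either TPM scale and without repeat replicate 3 (adjusted p up to 0.227), and in recovery against acute cells on either TPM scale and without recovery replicate 1 (adjusted p up to 0.0834). SOCS3 lost its call in recovery against acute cells with gene length in the model, on either TPM scale and without acute replicate 2 or recovery replicate 2 (adjusted p up to 0.132). The median size of the log2 fold change of the 10 genes was 0.13 in acute against vehicle cells, where that of all genes was 0.17, and 0.10 in repeat against recovery cells, where that of all genes was 0.17. In the difference of the responses it was 0.12, where that of all genes was 0.08. Comparisons that name the same group share its libraries.

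**Figure D4:**
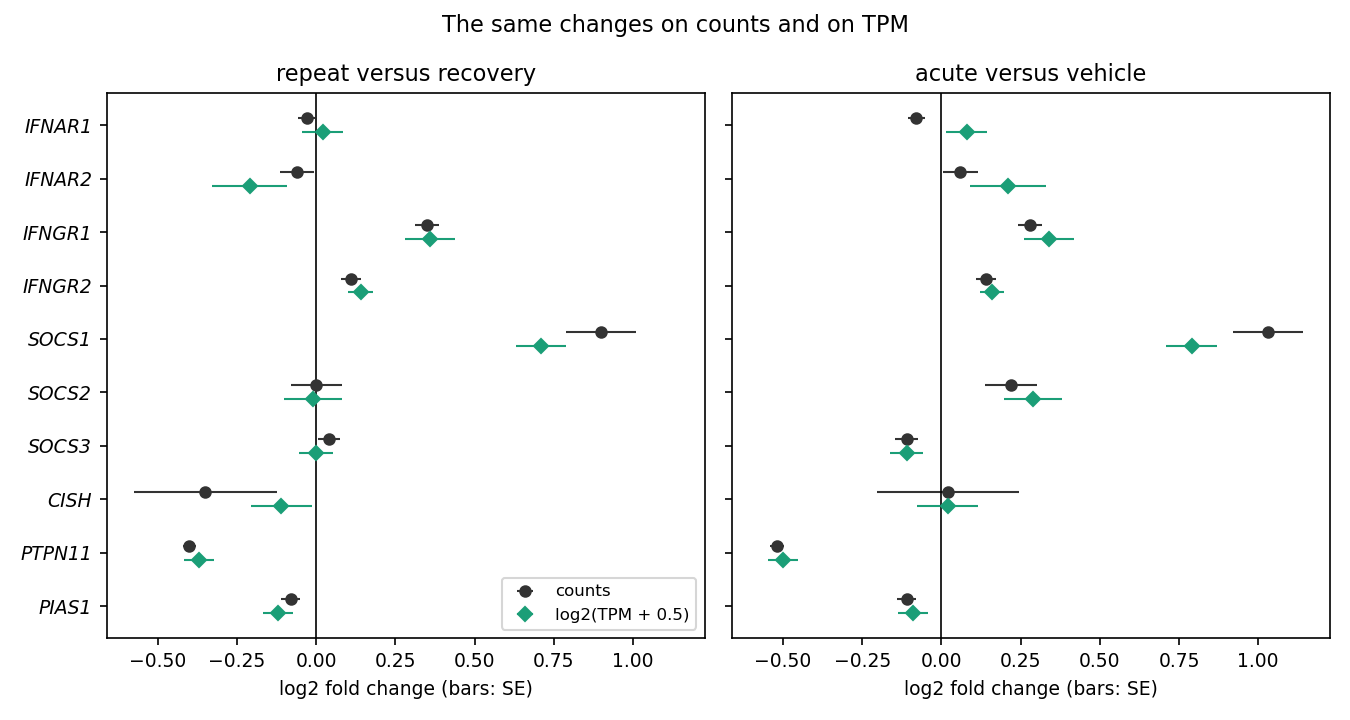
Log2 fold change (horizontal axis) with SE for each gene in repeat against recovery and acute against vehicle cells, from counts (circles) and from log2(TPM + 0.5) (diamonds). SOCS1, PTPN11, IFNGR1 and IFNGR2 keep their side of 0 on both scales, and IFNAR1 in acute against vehicle cells turns from -0.08 on counts to 0.08 on TPM.

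Relatives of the 10 genes were listed by family and pathway, and their counts stand beside 43.8% of all genes called in acute against vehicle cells and 41.6% in repeat against recovery cells. Of 8 other class II cytokine receptor chains, the family of IFNAR and IFNGR, 5 passed the filter. In acute against vehicle cells 3 rose and none fell: IL22RA1, a chain of the interleukin-22 receptor, by a log2 fold change of 1.88 ± 0.187 (adjusted p = 2.19e-09), F3, which encodes tissue factor, by 1.03 ± 0.025 (adjusted p = 2.54e-23), and IL10RB, a chain shared by the interleukin-10 and type III interferon receptors, by 0.23 ± 0.042 (adjusted p = 4.81e-05). In repeat against recovery cells IL22RA1 rose by a log2 fold change of 1.76 ± 0.178 (adjusted p = 3.6e-09) and F3 by 1.00 ± 0.025 (adjusted p = 5.6e-23). F3 averaged 274 ± 1.88 CPM in repeat, 137 ± 3.01 in recovery, 278 ± 3.82 in acute and 136 ± 5.01 in vehicle libraries (SD, n = 3 each). Per length, F3 lay at 146, 71.6, 153 and 72.5 TPM in those groups, far above SOCS1. IL22RA1 was low, at 2.88 ± 0.368, 0.840 ± 0.215, 2.46 ± 0.423 and 0.663 ± 0.0178 CPM in repeat, recovery, acute and vehicle libraries. Its change on the log2(TPM + 0.5) scale was 0.75 in acute against vehicle cells.

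Among other PIAS genes, PIAS3 fell, at a log2 fold change of -0.16 ± 0.031 (adjusted p = 8.12e-05), and so did PIAS4, with -0.17 ± 0.035 (adjusted p = 0.000186) in acute relative to vehicle cells. In repeat relative to recovery cells PIAS2 and PIAS3 fell, with log2 fold changes of -0.16 ± 0.044 (adjusted p = 0.00306) and -0.15 ± 0.031 (adjusted p = 0.000326). On log2(TPM + 0.5) the calls of PIAS2 and PIAS3 in repeat against recovery cells held, while those of PIAS3 (adjusted p = 0.125) and PIAS4 (adjusted p = 0.291) in acute against vehicle cells were lost. Of 4 other phosphatases that act on JAK-STAT signalling 3 passed the filter, and none fell as far as PTPN11. PTPN2, a nuclear STAT phosphatase, fell in acute relative to vehicle cells, at a log2 fold change of -0.20 ± 0.032 (adjusted p = 7.52e-06), and PTPN1, which acts on JAK2 and TYK2, changed by -0.08 ± 0.023 in repeat relative to recovery cells (adjusted p = 0.00538). On log2(TPM + 0.5) neither of these phosphatase calls held, with adjusted p = 0.064 and 0.0869.

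The signalling genes that the receptors use moved in both directions. Of 11 kinases, STATs and IRF9, 5 rose and 3 fell in acute relative to vehicle cells, and 6 rose and 2 fell in repeat relative to recovery cells. In that order of comparisons, JAK1, the kinase shared by both interferon receptors, fell, with log2 fold changes of -0.33 ± 0.023 (adjusted p = 2.18e-12) and -0.32 ± 0.023 (adjusted p = 4.58e-12). Of 5 other feedback genes, 3 rose and 2 fell in each of these comparisons. USP18, which binds IFNAR2 and blocks JAK1 there, rose by a log2 fold change of 6.60 ± 0.092 (adjusted p = 3.88e-15) and by 5.76 ± 0.082 (adjusted p = 5.32e-15). USP18 was still above vehicle in recovery cells, by a log2 fold change of 0.95 ± 0.197 (adjusted p = 0.0123), as was SH2B3, an adaptor that restrains JAK2, by 0.28 ± 0.043 (adjusted p = 0.00159), and ISG15, a ubiquitin-like protein that stabilises USP18, by 0.53 ± 0.035 (adjusted p = 1.4e-09). On log2(TPM + 0.5) the calls of USP18 (adjusted p = 0.0572) and SH2B3 (adjusted p = 0.0504) were lost and that of ISG15 held. SOCS1 gave a log2 fold change of 0.02 in that comparison. Whether SOCS1 and USP18 differed in how far they returned was not tested.

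Of 6 genes for IFNAR1 turnover, 2 rose and 1 fell in acute relative to vehicle cells, a share near the 43.8% of all genes called. PRKD2, a kinase that promotes IFNAR1 ubiquitination, rose by a log2 fold change of 0.75 ± 0.032 (adjusted p = 4.62e-17), and in repeat relative to recovery cells by 0.67 ± 0.033 (adjusted p = 6.14e-16). Of 13 receptors and ligands that act upstream of SOCS3, SOCS2 and CISH, 12 passed the filter; 5 rose and 4 fell in acute relative to vehicle cells, and 4 rose and 4 fell in repeat relative to recovery cells. In acute relative to vehicle cells the receptor PRLR rose most, by a log2 fold change of 1.18 ± 0.174 (adjusted p = 2.68e-06). PRLR was low, at 1.21 CPM in vehicle and 2.71 in acute libraries on average, and lost that call on log2(TPM + 0.5) (adjusted p = 0.273). The ligands LIF and IL6 rose there too, LIF by a log2 fold change of 1.05 ± 0.048 (adjusted p = 8.02e-16) and IL6 by 1.04 ± 0.105 (adjusted p = 4.42e-09). The receptor LEPR fell, with -0.82 ± 0.054 (adjusted p = 6.95e-13). Of 21 interferon genes, 18 had 0 counts in all 12 libraries. IFNB1 had 6 counts in all, IFNA13 had 1, and IFNE had 146 and was not called in any comparison.

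**Figure D5:**
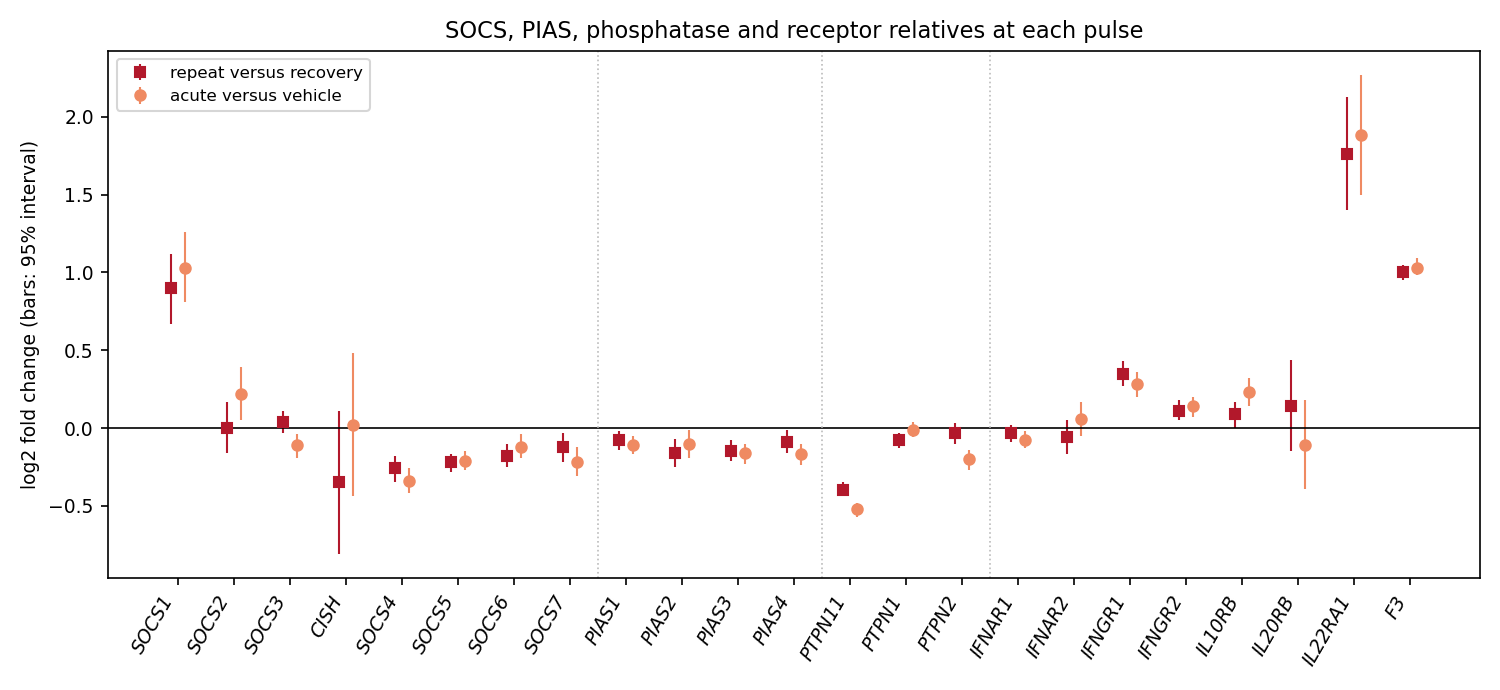
Log2 fold change (vertical axis) with its 95% interval in repeat against recovery (squares) and acute against vehicle (circles) cells for the SOCS, PIAS, phosphatase and class II receptor families, separated by dotted lines. IL22RA1, SOCS1 and F3 stand above the rest at both pulses and PTPN11 lies lowest.

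The genes whose log2 CPM followed each member most closely over the 12 libraries were ranked by Pearson correlation, given as a description, since libraries of a group share their treatment. PTPN11 was followed most closely by AHCYL1 (r = 0.995), FAM168B (r = 0.994) and COLEC12 (r = 0.994). SOCS1 was followed by ZFYVE26 (r = 0.994), ABHD16A (r = 0.989) and TMEM214 (r = 0.989), and IFNGR1 by GCA (r = 0.994), GADD45A (r = 0.990) and NMD3 (r = 0.989). For these 3 members none of the leading genes was the leading gene on log2(TPM + 0.5), where F3 stood among the 3 closest to SOCS1 (r = 0.989). IFNAR1 had its highest correlation with MELTF (r = 0.942 on log2 CPM), which was -0.295 on the TPM scale.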

How the data were processed

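Poly(A)-selected stranded libraries of AC16 cells were read as single reads. The authors used Trim Galore 0.6.10, cutadapt 4.3, STAR 2.7.11a, featureCounts 2.0.3, Picard 2.27.5 and edgeR on GRCh38.p13, per the submitters' processing notes. The authors deposited estimated counts per gene, of which 25.49% of nonzero values were not whole, and TPM. The strand setting of counting is not given in the sources used here. Gene symbols came from GENCODE, release 44, matching 60507 of 60649 identifiers.

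Estimated counts were rounded and tested with edgeR 4.0.16 in R 4.3.3 (quasi-likelihood F test, robust, TMM scaling, filterByExpr), with all 12 libraries in 1 fit and no covariate. The 18119 genes kept were tested two-sided, with Benjamini-Hochberg adjustment over all of them, and called below 0.05. Errors of log2 fold changes are SE. Common biological variation was 2.67%. The method was tested on simulated data. Alternatives used DESeq2 1.42.0, limma 3.58.1 on log2(TPM + 0.5) or log2(TPM + 0.1), other scalings and filters, a length offset from counts and TPM, a replicate block, compared groups alone, and each library left out. Members, lists and tests were chosen with earlier results of these data known. All 10 members were tested in every comparison and are described at each pulse, with called members named in the others, and from each list values are given for up to 4 called genes with the largest changes. 1 gene of the signalling list is not reported here by name. The labels contradict themselves on the medium and name both DESeq2 and edgeR.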

Additional observations from a re-analysis of the deposited data

Results flagged for a closer look

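PTPN11 was flagged because its response differed between the pulses: the response to the later pulse minus that to the first was 0.13 ± 0.030 on the log2 scale (adjusted p = 0.0467 by edgeR's quasi-likelihood test), the fall being -0.40 in repeat against recovery cells and -0.52 in acute against vehicle cells. The value kept its sign in every alternative, between 0.11 and 0.15. The call was lost with RLE scaling (adjusted p = 0.0501), with the gene length offset (0.639), with log2(TPM + 0.5) (0.736) and log2(TPM + 0.1) (0.734), and without any 1 of 10 of the 12 libraries, all but repeat replicates 1 and 2, where it reached 0.153. The cause was not tested. Groups of 3 libraries were not screened gene by gene for single outlying libraries.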

How the results depend on the processing

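SOCS1, PTPN11, IFNGR1 and IFNGR2 kept their direction and call at each pulse and in recovery against acute cells under all 10 alternatives and without any single library. IFNGR2 did so narrowly at the pulses, with adjusted p up to 0.0482. The gene length offset, log2(TPM + 0.5) and log2(TPM + 0.1) lowered the number of genes called from the count test, in that order, to 4420, 4324 and 4329 in acute against vehicle (7938 on counts), 3914, 3839 and 3843 in recovery against acute (7448), 178, 120 and 125 in recovery against vehicle (1076), 3971, 3812 and 3830 in repeat against recovery (7546), 10, 6 and 9 in repeat against acute (761), 4777, 4663 and 4667 in repeat against vehicle (8391) and 11, 5 and 5 in the difference of responses (118). That last count was 215 by DESeq2 and 333 with no filter. Of the 10 members, these 3 settings called 4, 5 and 5 in acute against vehicle (8 on counts), 3, 3 and 3 in repeat against vehicle (6), and 0 in repeat against acute (1), recovery against vehicle (1, also 0 with no filter) and the difference of responses (1, also 0 with RLE scaling). IFNAR1 turned to 0.06, 0.08 and 0.09 in acute against vehicle and to 0.02, 0.03 and 0.03 in repeat against vehicle. The causes were not tested.

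With each library left out in turn, genes called ranged over 624 to 942 in recovery against vehicle, lowest without vehicle replicate 1, over 337 to 1218 in repeat against acute, lowest without acute replicate 3 and highest without repeat replicate 1, and over 56 to 323 in the difference of responses, lowest without acute replicate 3 and highest without repeat replicate 1. Members called ranged over 0 to 0 in recovery against vehicle, 0 to 1 in repeat against acute and 0 to 1 in the difference of responses. Over single members, 437 of these values kept their call, 40 lost it, 3 gained one and 0 turned; under other alternatives 635 kept it, 42 lost it and 6 turned.

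Same-numbered libraries of 2 groups did not deviate together (correlations of -0.08 to 0.08), so the numbers were not taken as pairs. The replicate block changed no member's call and gave 7983, 7494, 1125, 7565, 855, 8409 and 160 genes called in the comparisons in the order above. CISH, at 31 to 59 counts, is limited by depth.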
